A study of Homo sapiens with 12 samples.

Results

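The genes of 5 secreted chemokines, CCL3, CCL3L3, CCL4, CXCL9 and CXCL10, were followed through 12 RNA sequencing libraries of REC1, an established human mantle cell lymphoma line. The genes were taken by name from a table of 60483 genes, and all 5 had a row. They were chosen by their differences in earlier results of these same data: CCL3, CCL3L3 and CCL4 were lower after ibrutinib, and CXCL10 was lower after the combination. Their values in comparisons with and without ibrutinib are therefore given as a description, with no test. Cells had received ibrutinib, ibrutinib together with SPX5551 (the combination), SPX5551 alone, or DMSO, and each treatment had 1 library at 4, 8 and 12 h. Ibrutinib is a covalent inhibitor of BTK, a kinase of the B-cell receptor pathway. SPX5551 appears as pol5551 in the deposited tables, and the study's title concerns inhibition of CXCR4, the receptor of CXCL12. All groups were REC1 cells in culture with no other cell type described, and the sources used here give no doses.

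Chemokines are small secreted proteins that steer leukocytes by binding G protein-coupled receptors. CCL3 and CCL4, also called MIP-1 alpha and MIP-1 beta, are released by B cells after B-cell receptor stimulation and draw in T cells and myeloid cells, and CCR1 is among the receptors of CCL3. Genes for both are targets of NF-kappaB, and CCL3 and CCL4 in the blood of patients with B-cell leukaemia are known to drop under inhibitors of B-cell receptor signalling. CXCL9 and CXCL10 are interferon-induced ligands of CXCR3, a receptor of activated T cells, and CXCL10 is also a target of NF-kappaB.

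The promoters are shown because the genes fell into a CC pair and a CXC pair with different behaviour below, and because CCL3 has a near-identical copy. In GENCODE 29 on hg38, CCL3 (ENSG00000277632) lies at chr17:36088256-36090169 on the minus strand, its copy CCL3L3 (ENSG00000276085, named CCL3L1 in that release) at chr17:36194869-36196758 on the minus strand, and CCL4 (ENSG00000275302) at chr17:36103590-36105621 on the plus strand. CXCL9 (ENSG00000138755) lies at chr4:76001275-76007488 and CXCL10 (ENSG00000169245) at chr4:76021117-76023497, both on the minus strand. Each RefSeq promoter (GRCh38.p14) runs from 250 bases before the annotated start to 50 bases after it and is written 5′ to 3′ on the gene's own strand. Capitals mark matches to GGGANNTTC (NF-kappaB-like) or GAAANNGAA (like an interferon-stimulated response element), searched on both strands. The windows are chr17:36090094-36090393 for CCL3, chr17:36196709-36197008 for CCL3L3, chr4:76007460-76007759 for CXCL9 and chr4:76023448-76023747 for CXCL10, all on the minus strand. No promoter is printed for CCL4.
CCL3 promoter: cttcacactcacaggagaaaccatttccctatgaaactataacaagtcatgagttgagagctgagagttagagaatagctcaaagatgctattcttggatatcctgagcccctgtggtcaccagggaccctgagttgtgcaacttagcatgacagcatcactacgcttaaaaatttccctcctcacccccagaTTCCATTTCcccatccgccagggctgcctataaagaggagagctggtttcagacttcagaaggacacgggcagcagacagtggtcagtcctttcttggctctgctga
CCL3L3 promoter: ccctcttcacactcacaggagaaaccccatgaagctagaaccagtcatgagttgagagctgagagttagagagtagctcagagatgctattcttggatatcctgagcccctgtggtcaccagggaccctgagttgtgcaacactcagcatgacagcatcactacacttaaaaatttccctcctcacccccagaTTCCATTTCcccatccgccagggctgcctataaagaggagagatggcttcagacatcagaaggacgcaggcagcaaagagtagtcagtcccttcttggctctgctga
CXCL9 promoter: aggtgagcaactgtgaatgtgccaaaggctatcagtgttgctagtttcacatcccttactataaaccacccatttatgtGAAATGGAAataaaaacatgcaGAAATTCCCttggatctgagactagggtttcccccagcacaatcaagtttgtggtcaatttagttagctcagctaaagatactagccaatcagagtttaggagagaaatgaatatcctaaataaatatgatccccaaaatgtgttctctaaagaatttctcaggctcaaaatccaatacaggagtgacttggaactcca
CXCL10 promoter: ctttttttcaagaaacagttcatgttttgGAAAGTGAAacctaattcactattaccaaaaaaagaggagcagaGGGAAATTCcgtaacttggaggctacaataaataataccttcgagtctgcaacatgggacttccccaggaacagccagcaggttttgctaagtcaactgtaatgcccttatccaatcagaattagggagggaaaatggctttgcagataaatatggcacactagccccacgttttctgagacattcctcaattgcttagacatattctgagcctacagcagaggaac

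The CXCL9 and CXCL10 windows each held 1 match to GGGANNTTC, beginning 149 bases before the CXCL9 start (on the opposite strand) and 177 bases before the CXCL10 start. The CCL3 and CCL3L3 windows held none. Of 35116 promoters of the same length, 4.2% held this motif. A match to GAAANNGAA was present in all 4 windows, 57 bases before the start in CCL3 and CCL3L3 (opposite strand), 171 bases before it in CXCL9 and 221 bases before it in CXCL10, and in 8.1% of all promoters. TGANTCA (AP-1-like, 7.7% of promoters), TGACGTCA (CRE-like, 1.8%) and TTCNNNGAA (STAT-like, 7.7%) had no match in the 4 windows. The short NFAT-like core GGAAA matched in all 4 and in 61.2% of promoters, and it overlaps some of the capitals. These matches describe the letters of the windows and not factor binding. The CCL3 and CCL3L3 promoters were identical at 277 of 306 aligned positions (90.5%), and those of CXCL9 and CXCL10 at 176 of 334 (52.7%).

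The coding sequences of CCL3 and CCL3L3 show how far reads of the copies can be told apart. They were read from the GENCODE 29 transcripts on GRCh38 at the gene positions above, minus strand, and capitals mark the alignment columns that differ.
CCL3 coding sequence: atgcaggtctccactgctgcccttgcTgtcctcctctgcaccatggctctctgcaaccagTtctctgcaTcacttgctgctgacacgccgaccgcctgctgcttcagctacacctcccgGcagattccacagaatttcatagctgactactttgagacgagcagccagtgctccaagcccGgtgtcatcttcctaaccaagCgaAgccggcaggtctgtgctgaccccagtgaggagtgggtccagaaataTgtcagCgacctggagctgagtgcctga
CCL3L3 coding sequence: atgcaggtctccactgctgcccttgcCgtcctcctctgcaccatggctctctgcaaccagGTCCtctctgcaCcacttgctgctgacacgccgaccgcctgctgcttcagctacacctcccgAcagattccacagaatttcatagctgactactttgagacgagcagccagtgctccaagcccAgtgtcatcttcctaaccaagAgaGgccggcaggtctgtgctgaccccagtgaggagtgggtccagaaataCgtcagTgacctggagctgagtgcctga

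The coding sequences were 279 bases (92 codons) in CCL3 and 282 bases (93 codons) in CCL3L3, and 270 of 282 aligned positions were identical (95.7%). Of all 50-base stretches of the CCL3 transcript, 9.9% also occurred unchanged in a transcript of CCL3L3, and no 100-base stretch did. For CCL4 and its copy CCL4L2 (ENSG00000276070, chr17:36210924-36212878, plus strand) these shares were 21.3% and 5.6%. No 50-base stretch was shared by CCL3 and CCL4. The sources used here give neither the read length nor the handling of reads that match both copies, so the split between copies is uncertain. They give no strand setting for the counting either, and reads from overlapping genes on the other strand cannot be set apart.

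Libraries held 19336303 to 28934030 counts, and 14412 genes passed the filter on low counts, all 5 chemokines among them. No pair of libraries was alike within counting error. Genes that mark B cells and this lymphoma (CD79A, CD79B, MS4A1, PAX5 and CCND1) summed to 3786 to 4806 counts per 1e6 counts of a library (CPM), in keeping with a B-cell line. Myeloid markers, of a cell type that makes all of these chemokines in tissue, summed to 0.45 to 1.31 CPM, with S100A8, S100A9 and FCGR3A at 0 in every library. T-cell markers summed to 6.62 to 10.7 CPM after the combination, 7.04 to 9.52 after ibrutinib, 8.27 to 9.98 after SPX5551 and 8.29 to 8.63 after DMSO. One of them, the T-cell receptor transcript TRAC, fell by 1.72 ± 0.40 on the log2 scale in the combination against DMSO (edgeR adjusted p = 0.014), and its part in the chemokine values was not tested. TRAC had only 4 to 32 counts in a library. The other 2 T-cell markers tested there, CD3D and CD3E, differed by -0.07 and 0.11, in no given order, and did not pass. Each treatment and time had 1 library, so the 3 times of a treatment were used as its replicates, and the 4 treatments at a time as the replicates of that time. The labels name no separate cultures, and p-values therefore describe the spread among these libraries alone. Column headers and sample titles agree on treatment and time, but the samples' free-text descriptions each point to a column with a different treatment and an equal time. All values here follow the headers and titles. Under the descriptions, the differences of all 5 genes in the 3 comparisons described for ibrutinib would turn round (CCL3 would be 2.42 higher on the log2 scale in ibrutinib against DMSO), while the differences between times would stand.

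CXCL10 was the most abundant of the 5 transcripts per length, and CCL3L3 the least. Divided by the length of the annotated transcript, CXCL10 averaged 25.4 ± 23.0 CPM per kilobase after ibrutinib, 15.5 ± 13.3 after the combination, 35.2 ± 16.3 after SPX5551 and 47.1 ± 39.7 after DMSO (SD, n = 3 each). On the same scale CCL3 averaged 1.93 ± 0.88 after ibrutinib, 1.65 ± 0.92 after the combination, 8.80 ± 2.08 after SPX5551 and 8.46 ± 3.12 after DMSO. CXCL9 averaged between 4.19 and 5.44 CPM per kilobase in the 4 treatments, CCL4 between 0.75 and 5.59, and CCL3L3 between 0.14 and 1.63. All later levels are CPM without division by length, and they compare libraries within 1 gene.

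**Figure D1:**
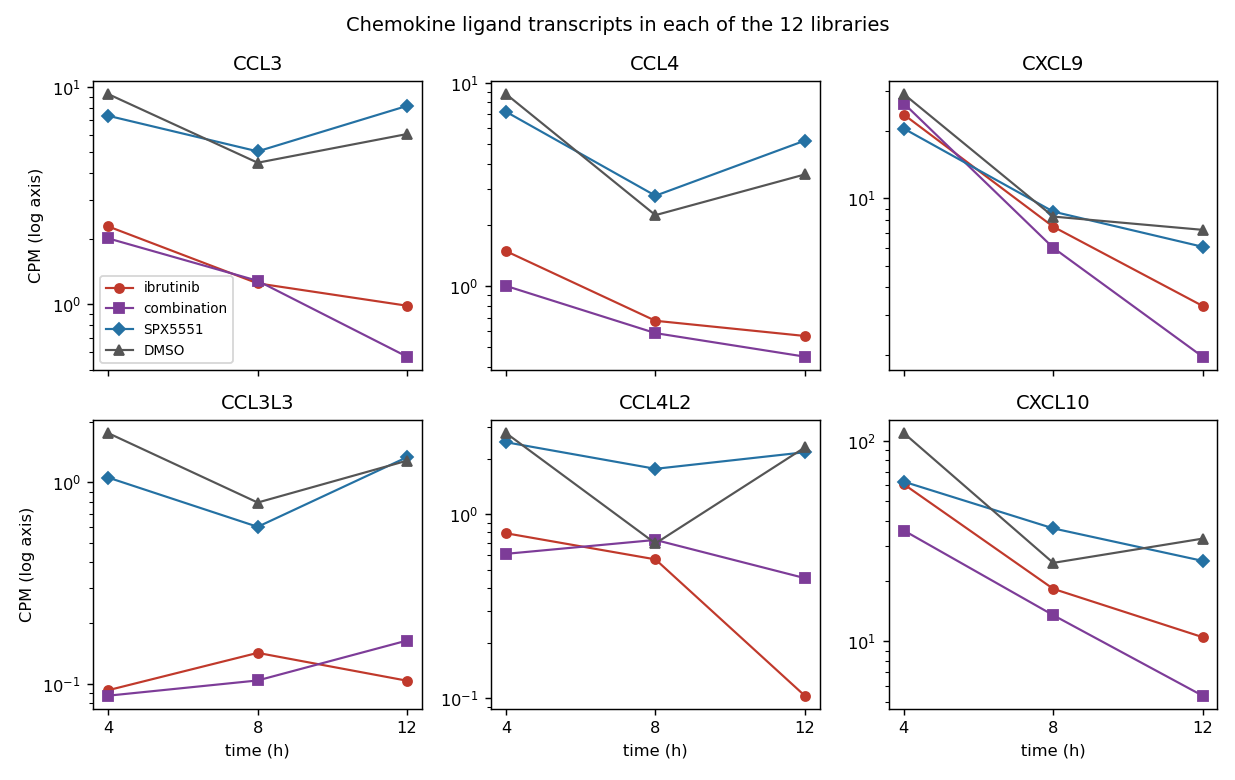
CPM (log axis) against time in hours for CCL3, CCL4, CXCL9, CCL3L3, CCL4L2 and CXCL10, with 1 point per library and a line per treatment. In CCL3, CCL4 and CCL3L3 the 6 ibrutinib and combination libraries lie below the 6 SPX5551 and DMSO libraries, and in CXCL9 and CXCL10 the 4 h libraries of a treatment lie above its later ones.

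CCL3 and CCL4, the CC chemokines of B-cell activation, were lower in every library that had received ibrutinib. CCL3 had 2.27, 1.25 and 0.98 CPM at 4, 8 and 12 h after ibrutinib, 2.0, 1.28 and 0.57 CPM after the combination, 7.34, 5.04 and 8.15 CPM after SPX5551, and 9.23, 4.47 and 6.05 CPM after DMSO. Both treatments with ibrutinib were low at each time, and their 6 libraries did not overlap the 6 without ibrutinib. At 12 h, CCL3 was 6.16-fold lower after ibrutinib than after DMSO and 14.2-fold lower after the combination than after SPX5551, against 4.06-fold and 3.66-fold at 4 h. These ratios each compare a single pair of libraries. The fitted log2 fold change was -2.15 ± 0.28 (SE) for ibrutinib against DMSO, -2.42 for the combination against DMSO and -2.50 for the combination against SPX5551. In bulk libraries, fewer expressing cells and less RNA per cell cannot be told apart.

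CCL4 had 1.49, 0.68 and 0.57 CPM at 4, 8 and 12 h after ibrutinib and 1.0, 0.59 and 0.45 CPM after the combination, against 7.19, 2.78 and 5.19 CPM after SPX5551 and 8.78, 2.23 and 3.54 CPM after DMSO. Here too the 6 libraries with ibrutinib lay below the 6 without. Its fitted log2 fold change was -2.36 for ibrutinib against DMSO, -2.80 for the combination against DMSO and -2.93 for the combination against SPX5551. Within DMSO and SPX5551, the 8 h library was the lowest of the 3 times for both genes.

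CCL3L3, whose product is nearly the same as CCL3, had only 2, 4 and 2 counts at 4, 8 and 12 h after ibrutinib and 2, 3 and 4 counts after the combination. It had 21, 16 and 27 counts after SPX5551 and 35, 16 and 25 counts after DMSO, again without overlap. The fitted log2 fold change was -3.37 for ibrutinib against DMSO, -3.42 for the combination against DMSO and -3.04 for the combination against SPX5551, and it rests on these few counts. Of the reads given to CCL3 or CCL3L3, CCL3L3 took 7.8% (95% exact binomial interval 4.6 to 12.2) over the 6 libraries with ibrutinib and 14.3% (12.2 to 16.7) over the 6 without. The copy CCL4L2 took 41.8% (34.7 to 49.0) of the reads of CCL4 and CCL4L2 with ibrutinib and 29.4% (26.3 to 32.5) without. These intervals cover counting error only. Summing the copies before the fit gave -2.29 for CCL3 with CCL3L3 and -2.22 for CCL4 with CCL4L2 in ibrutinib against DMSO.

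CXCL9 and CXCL10, the CXCR3 ligands, overlapped between libraries with and without ibrutinib. CXCL9 had 23.6, 7.47 and 3.31 CPM at 4, 8 and 12 h after ibrutinib, 26.5, 6.01 and 1.97 CPM after the combination, 20.5, 8.72 and 6.08 CPM after SPX5551, and 29.2, 8.29 and 7.23 CPM after DMSO. At 4 and 8 h the treatments were close together, and at 12 h the 2 libraries with ibrutinib were the lowest. CXCL10 had 60.7, 18.3 and 10.5 CPM after ibrutinib, 35.7, 13.5 and 5.36 CPM after the combination, 62.5, 36.6 and 25.2 CPM after SPX5551, and 109.1, 24.6 and 32.5 CPM after DMSO. The combination library was the lowest of the 4 treatments for CXCL10 at each time. For CXCL9 the fitted log2 fold change was -0.51 for ibrutinib against DMSO, -0.70 for the combination against DMSO and -0.44 for the combination against SPX5551. For CXCL10 it was -1.01, -1.74 and -1.50 in the same order. The CXCL9 values rest on few libraries: with 1 library or time left out they ran from -0.68 to -0.29, from -1.16 to -0.35 and from -1.04 to -0.08 in that order, each nearest 0 without 12 h.

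In all, 3 of the 5 chemokines (CCL3, CCL3L3 and CCL4) had every library with ibrutinib below every library without it, and 64 of the 14412 tested genes (0.444%) did so. These genes were chosen for being low with ibrutinib, so nothing is read from that share. In the edgeR quasi-likelihood fits with Benjamini-Hochberg adjustment at 0.05, ibrutinib against DMSO lowered 0.104% of the tested genes and raised none. The combination lowered 5.41% of genes against DMSO and 3.97% against SPX5551. These shares depend on single libraries. The 15 genes of ibrutinib against DMSO became 3 or 6 when ibrutinib lacked its 12 h or its 4 h library, 4 when DMSO lacked its 4 h library, 29 when SPX5551 lacked its 12 h library and 670 when 12 h was left out. Counting both directions, the combination against DMSO had 1379 genes and 568 to 853 without any 1 library of the combination or DMSO. Against SPX5551 it had 1043 genes, and 343 to 540 without the 4 h or 12 h combination library or the 8 h or 12 h SPX5551 library. By mean CPM from low to high, the order of the treatments was the combination, ibrutinib, DMSO and SPX5551 for both CCL3 and CCL4, and the ranges of mean ± SD overlapped within the low pair and within the high pair. For CCL4 the ranges of ibrutinib (0.91 ± 0.50 CPM) and DMSO (4.85 ± 3.47 CPM) also overlapped slightly, although no library did, and for CCL3 those of ibrutinib and DMSO did not. For CCL3L3 ibrutinib was lowest, followed by the combination, SPX5551 and DMSO, with the same 2 pairs. Mean CPM of CXCL9 lay between 11.5 ± 10.7 after ibrutinib and 14.9 ± 12.4 after DMSO, and that of CXCL10 between 18.2 ± 15.7 after the combination and 55.4 ± 46.7 after DMSO (SD, n = 3 each). For these 2 genes the ranges of neighbouring treatments overlapped, and the SD holds the differences between times.

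**Figure D2:**
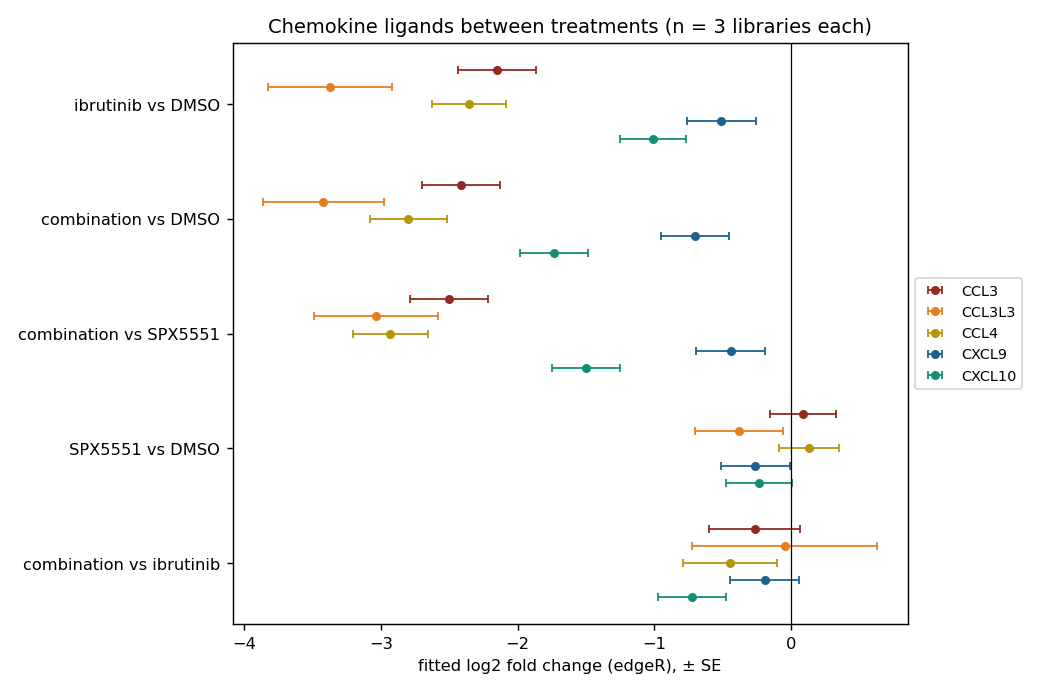
Fitted log2 fold change of each chemokine in 5 comparisons between treatments, with bars of ± 1 SE and 3 libraries per treatment. The 3 upper comparisons differ by ibrutinib and are a description, with CCL3, CCL3L3 and CCL4 between -3.42 and -2.15. The 2 lower ones differ by SPX5551, and no gene passed the test there, with nothing read from CCL3L3 in the combination against ibrutinib.

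SPX5551 alone left no detectable change in the 5 chemokines. None passed against DMSO in edgeR's quasi-likelihood test (adjusted p from 0.736 to 0.935), and 0% of all tested genes passed, with 1200 of them under 0.05 before adjustment. The log2 difference was 0.09 for CCL3 (95% interval -0.43 to 0.60), 0.13 for CCL4 (-0.34 to 0.60), -0.24 for CXCL10 (-0.75 to 0.27), -0.26 for CXCL9 (-0.79 to 0.27) and -0.38 for CCL3L3 (-1.06 to 0.30). These intervals do not reach a fall of the size that CCL3, CCL3L3 and CCL4 had with ibrutinib, but they leave room for smaller changes in both directions. Single times went both ways: CXCL10 had 62.5 CPM after SPX5551 and 109.1 CPM after DMSO at 4 h, and 36.6 and 24.6 CPM at 8 h.

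In the combination against ibrutinib, which differ by SPX5551, none of CCL3, CCL4, CXCL9 and CXCL10 passed the threshold. CCL3L3 had 2 to 4 counts in each library of both treatments and passed the filter on low counts through the SPX5551 and DMSO libraries, so nothing is read from its test. Of all tested genes 5.49% passed, but this share moved to between 0.519% (without the 8 h ibrutinib library) and 3.59% without any 1 of 7 libraries (each ibrutinib library, the 4 h and 8 h combination libraries, the 8 h SPX5551 library and the 8 h DMSO library), and to 8.43% without the 12 h SPX5551 library. CXCL10 came nearest, with a log2 difference of -0.72 ± 0.25 and an edgeR adjusted p of 0.0975, and it was lower in the combination at all 3 times. CXCL10 was chosen for low values in these same combination libraries, and CCL3, CCL3L3 and CCL4 for low values in these same ibrutinib libraries. The p-values of these genes here and in the interaction are therefore no independent test. With no filter on low counts the edgeR adjusted p of CXCL10 was 3.6e-07 (SE 0.12). That fit treated the spread of each gene as known exactly, so nothing is read from it. In the other alternatives the adjusted p of CXCL10 ran from 0.00804 (only the 6 libraries compared) to 0.783 (columns paired by the free-text descriptions). This call depends on the processing. CCL4 differed by -0.44 (95% interval -1.17 to 0.28), CCL3 by -0.27 (-0.97 to 0.44) and CXCL9 by -0.19 (-0.72 to 0.34), with edgeR adjusted p from 0.451 to 0.674. The interaction of both agents is the part of the combination beyond the sum of each agent on the log2 scale. It passed for none of CCL3, CCL4, CXCL9 and CXCL10 (edgeR adjusted p of 0.929 or more), and nothing is read from CCL3L3 there either. Of all tested genes 0% passed, with 845 of them under 0.05 before adjustment.

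Time separated the genes in another way. The choice of the 5 genes is not known to have used differences between times, but it may have, and the tests below carry that limit. Between 12 and 4 h, CXCL9, CXCL10, CCL4 and CCL3 fell (4 of 5), against 17.5% of all tested genes that fell. CXCL9 fell by 2.59 ± 0.22 on the log2 scale (edgeR adjusted p = 3.7e-06) and CXCL10 by 2.10 ± 0.22 (adjusted p = 1.3e-05), both in 4 of 4 treatments. CCL4 fell by 1.05 ± 0.22 (edgeR adjusted p = 0.0020) and CCL3 by 0.67 ± 0.24 (adjusted p = 0.0363). CCL3L3 differed by -0.06 ± 0.34 (adjusted p = 0.911). Of the 3 T-cell markers tested, TRAC fell by 1.35 ± 0.34 (edgeR adjusted p = 0.0059), CD3E rose by 0.55 ± 0.18 (adjusted p = 0.026) and CD3D differed by 0.11 ± 0.17 between 12 and 4 h, and TRAC fell by 1.14 ± 0.32 between 8 and 4 h (adjusted p = 0.015). TRAC had 4 to 32 counts in a library, and the part of these markers in the chemokine values was not tested. The CCL3 change at 12 h was positive in the SPX5551 pair, where CCL3 had 8.15 CPM at 12 h and 7.34 CPM at 4 h, and it lost its call when any 1 of 6 libraries was left out (the 4 h and 12 h libraries of ibrutinib, the combination and DMSO), with adjusted p from 0.0703 to 0.128.

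By 8 h the same 4 genes had fallen against 4 h, where 13.4% of all tested genes fell. In both directions 3832 genes passed there, against 2421 without the 4 h combination library and 2479 without the 8 h DMSO library. CXCL9 fell by 1.76 ± 0.21 (edgeR adjusted p = 6.2e-05), and CXCL10 fell by 1.54 ± 0.21 (adjusted p = 1.5e-04), CCL4 fell by 1.48 ± 0.23 (adjusted p = 3.5e-04) and CCL3 fell by 0.83 ± 0.24 (adjusted p = 0.0178). CCL3L3 differed by -0.77 ± 0.36 (adjusted p = 0.129). The CCL3 call at 8 h was lost without the 4 h ibrutinib, combination or DMSO library or the 8 h SPX5551 or DMSO library (adjusted p from 0.0577 to 0.0920). Between 12 and 8 h only CXCL9 passed, at -0.83 ± 0.23 (edgeR adjusted p = 0.0403), where 4.66% of tested genes fell. This call was lost without any 1 of 8 libraries, with the largest adjusted p, 0.166, without the 12 h combination library. The number of genes passing in either direction between 12 and 8 h was no firmer, at 1308 with all libraries, 27 to 58 without the 8 h or 12 h DMSO or combination library, 273 to 867 without the 4 h or 12 h ibrutinib, 8 h SPX5551 or 4 h DMSO library, and 2372 and 3076 without the 8 h ibrutinib or the 12 h SPX5551 library. CXCL10 differed by -0.56 ± 0.22 (adjusted p = 0.105), CCL3 by 0.15 ± 0.25, CCL4 by 0.44 ± 0.24 and CCL3L3 by 0.71 ± 0.36.

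**Figure D3:**
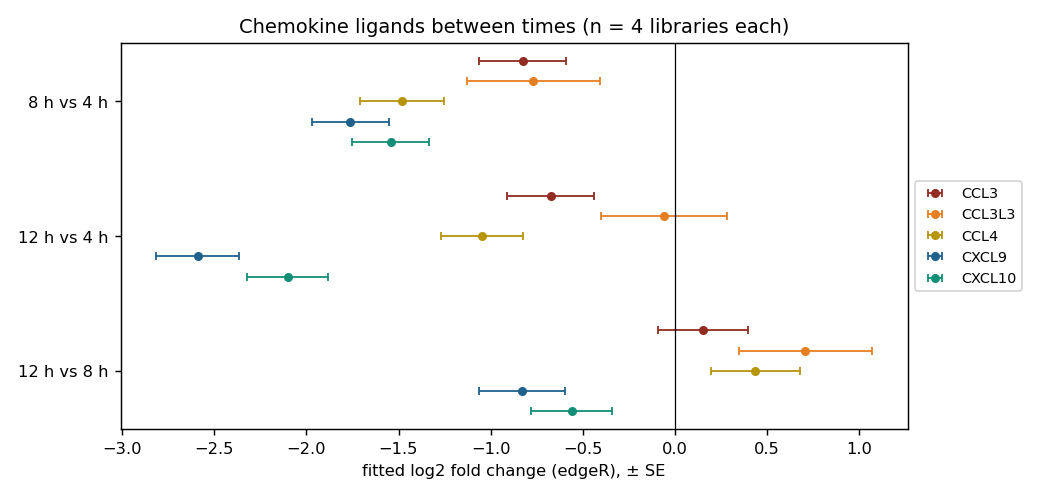
Fitted log2 fold change of each chemokine between times, over 4 treatments per time, with bars of ± 1 SE. CXCL9 and CXCL10 sit farthest left at 12 h against 4 h (-2.59 and -2.10), while CCL3L3 lies near 0 there (-0.06).

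A model with a separate ibrutinib effect at each time tested whether the falls with time differed by ibrutinib exposure. None of CCL3, CCL4, CXCL9 and CXCL10 passed after adjustment over all genes (edgeR adjusted p of 1 for each). CCL3L3 had few counts in the libraries with ibrutinib, so nothing is read from its test. Of all tested genes 0% passed, and 252 genes were under 0.05 before adjustment. Unadjusted p was 0.00107 for CXCL9, 0.0109 for CCL3 and 0.0262 for CXCL10. CCL3, CCL3L3 and CCL4 were chosen for low values after ibrutinib, and CXCL10 for low values after the combination. The p-values of these genes in this fit are therefore no independent test, and the terms that follow are a description. The 12 h term for CXCL9 was -1.42 on the log2 scale, for CCL3 -1.29 and for CXCL10 -1.09, meaning a further drop with ibrutinib at 12 h beyond that at 4 h. With no filter on low counts, CXCL9 (edgeR adjusted p = 0.00343) and CXCL10 (0.00289) passed this test. In that fit p followed from F as if the spread of each gene were known exactly, so nothing is read from those calls.

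A split of the sum of squares of log2 CPM over the 12 libraries is given as a description. CCL3, CCL3L3 and CCL4 were chosen for low values after ibrutinib, so their high ibrutinib shares are no separate evidence. Ibrutinib exposure took 92.8% for CCL3L3, 82.6% for CCL3 and 79.1% for CCL4, and time took 1.9%, 9.7% and 16.2%. CCL3L3 had 2 to 4 counts in each library with ibrutinib, where the prior count of 2 flattens the spread, so its split is uncertain. For CXCL9 ibrutinib exposure took 6.3% and time 84.1%. CXCL10 lay between, with 28.6% for ibrutinib exposure and 58.0% for time. SPX5551 exposure took at most 4.2%, in CXCL10.

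**Figure D4:**
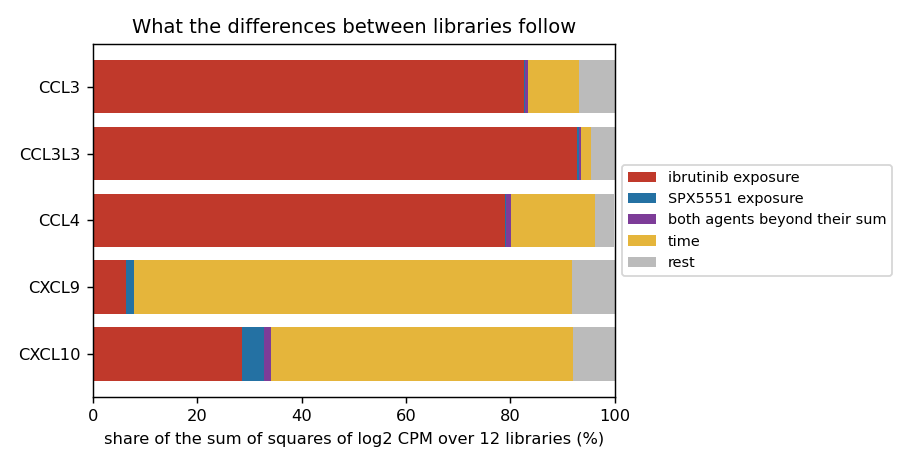
Share of the sum of squares of log2 CPM over 12 libraries (%) that goes with ibrutinib exposure, SPX5551 exposure, both agents beyond their sum, time, and the rest, for each chemokine. Ibrutinib exposure fills most of the bar in CCL3, CCL3L3 and CCL4, and time fills most of it in CXCL9 and CXCL10.

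Levels correlated within the CC pair and within the CXC pair, and also between the pairs, most closely among the libraries with ibrutinib. Over the 12 libraries, log2 CPM of CCL3 and CCL4 correlated at r = 0.975 (0.934 over the 6 libraries with ibrutinib and 0.957 over the 6 without), and CXCL9 and CXCL10 at 0.926 (0.970 with and 0.965 without). Between the pairs, CCL3 and CXCL9 correlated at 0.580 over all libraries (0.971 with ibrutinib and 0.591 without), CCL4 and CXCL9 at 0.578 (0.934 and 0.763), CCL3 and CXCL10 at 0.800 (0.980 and 0.675) and CCL4 and CXCL10 at 0.806 (0.982 and 0.808). Among the 6 libraries with ibrutinib these 4 values lay between 0.934 and 0.982, as high as those within the pairs. The libraries share treatments and times, so these values describe the pattern only. CCL3L3 and CCL3 correlated at 0.864 without ibrutinib and at -0.747 with it, where CCL3L3 had 2 to 4 counts.

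The genes most like CCL3 over the 12 libraries were DUSP2, a phosphatase of MAP kinases (r = 0.963), the ubiquitin ligase SIAH2 (0.957), the NF-kappaB inhibitors NFKBID (0.954) and NFKBIA (0.952), and CD83, a surface protein of activated B cells (0.945). CCL4 was closest to SIAH2 (0.974), CD83 (0.964), NFKBID (0.962), the kinase PLK3 (0.958) and NFKBIA (0.956). DUSP2, SIAH2, NFKBIA and PLK3 also had every library with ibrutinib below every library without it, a trait of 0.444% of all tested genes. They were picked for following CCL3 or CCL4 over these same libraries, so nothing is read from that trait. NFKBID overlapped, with 11.6 to 23.0 CPM with ibrutinib and 20.4 to 56.5 CPM without, and so did CD83, with 44.8 to 138 CPM with ibrutinib and 121 to 411 CPM without. CXCL10 shared no such gene with them, and was closest to the kinase MAPKAPK5 (0.987), the kinesin KIF26B (0.975), the RNA helicase DDX55 (0.975), the transporter SLC43A3 (0.969) and ADTRP (0.969).

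Few other chemokine ligands passed the filter on low counts in REC1. This list and the gene lists below were chosen with earlier results of these data known, so their counts are no separate evidence. Of 39 further ligands, 19 had 0 counts in every library and 4 passed (CCL5, CCL22, CCL28 and CXCL16). CXCL11, the third CXCR3 ligand, had 0 to 3 counts in a library. CCL22, a CCR4 ligand that attracts regulatory T cells, had 30.6, 14.3 and 5.02 CPM at 4, 8 and 12 h after ibrutinib, 24.1, 18.3 and 3.11 CPM after the combination, 25.8, 22.3 and 9.98 CPM after SPX5551, and 35.6, 21.4 and 6.36 CPM after DMSO. It was lowest at 12 h in every treatment. CCL22 fell by 2.39 ± 0.21 at 12 h against 4 h (edgeR adjusted p = 3.7e-06), and CCL5, a CC chemokine of T cells, by 0.79 ± 0.21 (adjusted p = 0.0097), so that 2 of the 4 fell where 17.5% of all tested genes did. Neither passed in ibrutinib against DMSO, and CCL5 fell by 0.81 ± 0.24 in the combination against DMSO (edgeR adjusted p = 0.049), where 5.41% of all tested genes fell. The median log2 fold change of the 4 ligands was -0.08 in ibrutinib against DMSO, where that of all genes was 0.02, and -0.41 at 12 h against 4 h, where that of all genes was 0.00.

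Receptors of these ligands were scarce. CCR1, a receptor of CCL3, had 0 to 9 counts in a library. Of 23 chemokine receptors, 5 passed the filter (CCR7, CXCR3, CXCR4, CXCR5 and ACKR3). CXCR3, the receptor of CXCL9 and CXCL10, had 0.57, 0.73 and 0.41 CPM at 4, 8 and 12 h after the combination, 2.78, 1.71 and 0.93 CPM after ibrutinib, 2.01, 2.41 and 1.38 CPM after SPX5551, and 3.31, 1.99 and 1.08 CPM after DMSO. The combination libraries lay below those of the other treatments at all times. CXCR3 fell by 1.91 ± 0.31 in the combination against DMSO (edgeR adjusted p = 0.0016) and by 1.64 ± 0.31 in the combination against ibrutinib (adjusted p = 0.011). Ibrutinib differed from DMSO by -0.27 ± 0.27 for CXCR3, without passing. CXCR4, the CXCL12 receptor, rose by 0.64 ± 0.11 at 8 h against 4 h (edgeR adjusted p = 7.6e-04) and did not pass in any comparison of treatments.

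Genes of the interferon gamma route that passed the filter more often rose than fell between 4 and 12 h, when CXCL9 and CXCL10 fell. Of 20 listed genes 14 passed the filter, and at 12 h against 4 h 6 rose (18.4% of all tested genes rose) and 1, IFNGR2, fell, with a median of 0.16 against 0.00 for all genes. The regulators CIITA rose by 1.12 ± 0.13 (edgeR adjusted p = 3.2e-05), IRF1 by 0.91 ± 0.12 (adjusted p = 5.1e-05) and IRF8 by 0.63 ± 0.07 (adjusted p = 3.3e-05). IFNG itself had 0 or 1 count in each library. The listed GBP1, GBP2, GBP4, SOCS1 and IDO1 averaged 0.004 to 0.17 CPM. They did not pass the filter, so the counts above leave them out. In ibrutinib against DMSO none of the 14 passed.

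Many NF-kappaB route genes fell with time, and a few fell with ibrutinib. The list was chosen with earlier results of these data known, so its counts are no separate evidence. At 12 h against 4 h, 9 of 18 fell and 1 rose, where 17.5% of all tested genes fell and 18.4% rose, with a median of -0.24 against 0.00 for all genes. Among them RELB, a subunit of the alternative arm, fell by 1.14 ± 0.19 (edgeR adjusted p = 3.4e-04), NFKB2 by 0.72 ± 0.16 (adjusted p = 0.0032) and the inhibitor TNFAIP3 by 0.62 ± 0.13 (adjusted p = 0.0015). After SPX5551, NFKB2 had 49.58 CPM at 4 h and 49.65 CPM at 12 h, and RELB had 24.59 and 21.99 CPM. All other treatments, DMSO included, had lower values of NFKB2 and RELB at 12 h than at 4 h. In ibrutinib against DMSO 2 of 18 fell (0.104% of all tested genes did), NFKBID by 1.32 ± 0.22 (edgeR adjusted p = 0.020) and NFKBIA by 1.06 ± 0.18 (adjusted p = 0.021), and the median was 0.02 for the list and for all genes. The subunits RELA (0.07 ± 0.08) and NFKB1 (0.05 ± 0.10) did not pass there. In the combination against DMSO 5 of the 18 fell, where 5.41% of all tested genes fell.

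Genes that activated B cells induce along with CCL3 and CCL4 were chosen with their values known, so their counts are no separate evidence. In ibrutinib against DMSO 6 of 11 tested genes fell (13 were listed), with a median of -1.34, where 0.104% of all tested genes fell. EGR3, a factor of the early response, fell by 3.87 ± 0.40 (edgeR adjusted p = 7.4e-04), the cytokine TNF by 2.28 ± 0.31 (adjusted p = 0.0039) and the activation marker CD69 by 1.34 ± 0.17 (adjusted p = 0.0027). With time they divided: at 12 h against 4 h 3 rose and 2 fell, where 18.4% of all tested genes rose and 17.5% fell. TNF rose by 0.98 ± 0.27 (adjusted p = 0.011), whereas CD83 fell by 1.12 ± 0.17 (adjusted p = 1.8e-04) and BCL2A1, a survival gene, by 1.93 ± 0.27 (adjusted p = 1.0e-04).

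**Figure D5:**
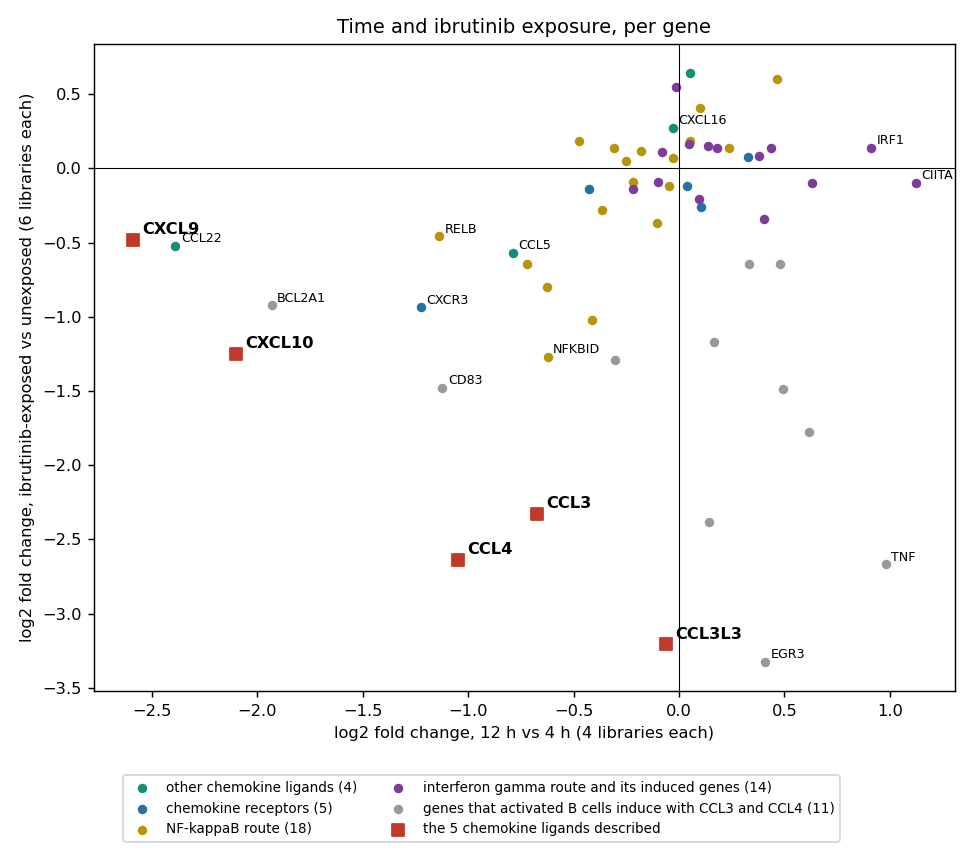
Log2 fold change at 12 h against 4 h (horizontal, 4 libraries each) and with against without ibrutinib (vertical, 6 libraries each) for the 5 chemokines (squares) and the genes of 5 lists (dots). CXCL9 and CXCL10 lie far left beside CCL22, while CCL3, CCL3L3 and CCL4 lie low among the activated B-cell genes.

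Of 15 genes of the chain from BTK to NF-kappaB and NFAT, none passed in ibrutinib against DMSO, and 2 fell in the combination (NFATC1 by 0.46 ± 0.11 and PPP3CA by 0.32 ± 0.09), where 5.41% of all tested genes fell, with a list median of -0.16 against 0.02 for all genes. Of 8 genes of mRNA decay and chemokine handling, none passed in ibrutinib against DMSO, and at 12 h against 4 h 2 fell and 2 rose, where 17.5% of all tested genes fell and 18.4% rose. The TNF receptor gene TNFRSF1B fell by 1.17 ± 0.09 (edgeR adjusted p = 1.1e-06) and SRGN, the granule proteoglycan that binds chemokines, by 1.07 ± 0.12 (adjusted p = 1.9e-05). ZFP36L1 and ZFP36L2, which hasten the decay of AU-rich transcripts, rose by 0.57 ± 0.11 (edgeR adjusted p = 0.0011) and 0.30 ± 0.08 (adjusted p = 0.012). ZFP36, of the same family, differed by 0.18 ± 0.08 and did not pass.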

How the data were processed

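Gene expression was measured by RNA sequencing of poly(A) RNA from REC1 cells, with 1 library per treatment and time. The submitters' processing notes name BWA and the build hg38; the counting tool, annotation and strand setting are not given. The authors deposited whole-number counts per Ensembl gene (60483 genes) and log2 CPM values for 14767 genes, which were only compared with log2 CPM computed from the counts (r of at least 0.99998 in each library). Per the labels, the molecule is genomic DNA, which the RNA protocol contradicts. Columns were given to treatments by the file headers and sample titles, which agree; the free-text descriptions name other columns, and that pairing was run as an alternative.

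Genes were filtered by treatment with filterByExpr in edgeR 4.0.16 (R 4.3.3), which kept 14412 genes with 99.9% of the counts, scaled by TMM (factors 0.94 to 1.09) and tested by quasi-likelihood, with Benjamini-Hochberg adjusted p over all tested genes and a threshold of 0.05. Terms of the model were treatment and time, added, so that time is the block that pairs the treatments; this pairing comes from the labelled times. The common biological coefficient of variation came to 0.101. SE is the absolute log2 fold change over the square root of F. Log2 CPM values carry a prior count of 2. DESeq2 1.42.0, other scalings, no filter, subsets of libraries, an offset for transcript length and GC content, and summed copies were the alternatives. The fits were tested on simulated data. Total counts of 19336303 to 28934030 make 1 count worth about 0.05 CPM or less.

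The 5 chemokines and all gene lists were chosen with earlier results of these data known. By rule, all 5 and their copies are named whatever their values, with the 5 genes of highest Pearson correlation (mean log2 CPM of at least 1) for CCL3, CCL4 and CXCL10. Genes named from the other lists were chosen after their values were seen. Symbols came from GENCODE 29 and a table of current gene names, which matched 93.8% of identifiers; CCL3L1, CCL3P1 and CCL4L1 had no row of their own. Markers of B, T, myeloid, NK, and stromal and endothelial cells were summed per library; NK markers summed to at most 0.69 CPM and stromal and endothelial markers to 19.2 to 45.7 CPM, mostly PECAM1. Some genes of the lists are not reported here.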

Additional observations from a re-analysis of the deposited data

Results flagged for a closer look

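Among the 18 sets of 4 libraries formed by a gene (the 5 chemokines and CCL4L2) and a time, 1 library stood apart from the other 3 by Dixon's criterion. At 8 h, CCL4L2, the copy of CCL4, had 1.77 CPM after SPX5551, and its gap to the next library was 0.869 of the range, above the 95% critical value for 4 libraries. That critical value assumes 4 alike libraries, and these had 4 different treatments, so no rate by chance is given.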

How the results depend on the processing

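The falls of CXCL9, CXCL10 and CCL4 at 8 h and at 12 h against 4 h kept their direction and stayed past the threshold in all alternatives, 20 for CXCL9 and CXCL10 and 21 for CCL4, and SPX5551 against DMSO and the interaction called none of the 5 chemokines in any alternative. Nothing is read from CCL3L3 in the interaction, where its few counts with ibrutinib enter. Time was the block that pairs the treatments. With no replicate block, ibrutinib against DMSO differed by -2.17 for CCL3, -3.45 for CCL3L3, -2.46 for CCL4, -0.42 for CXCL9 and -0.94 for CXCL10, no chemokine passed in SPX5551 against DMSO or in the combination against ibrutinib, and over all genes 0 passed in ibrutinib against DMSO (15 with the block) and 27 in the combination against DMSO (1379 with it). Columns paired by the free-text descriptions turned round the described values. In ibrutinib against DMSO they became 2.42 for CCL3, 3.42 for CCL3L3, 2.80 for CCL4, 0.70 for CXCL9 and 1.74 for CXCL10. In the combination against DMSO they became 2.50, 3.04, 2.93, 0.44 and 1.498 in the same order, and in the combination against SPX5551 2.24, 2.99, 2.48, 0.25 and 0.77. That pairing also gave 0.047 for CCL3L3, 0.19 for CXCL9 and 0.72 for CXCL10 in SPX5551 against DMSO, 0.086 for CCL3 and 0.13 for CCL4 in the combination against ibrutinib, and -0.43 for CCL3L3 and -0.46 for CXCL9 in the interaction. When the ibrutinib library of 8 h and the SPX5551 library of 12 h were left out together, CCL3 (-0.28) and CCL4 (-0.13) changed sign in SPX5551 against DMSO, as did CCL3L3 (0.46) in the combination against ibrutinib, CCL3 (0.009) in the interaction and CCL3 (-0.22) at 12 h against 8 h. Across genes, the log2 CPM of a library relative to the mean of all libraries correlated with transcript length (Spearman). The correlation was 0.17 to 0.41 in ibrutinib libraries, -0.40 to -0.20 in SPX5551, -0.30 to 0.37 in DMSO and -0.30 to 0.24 in the combination. Removing the trend with length and GC content turned round none of the described ibrutinib differences. It gave -0.005 for CCL3 in SPX5551 against DMSO and 0 for CCL3L3 at 12 h against 4 h, where scaling by library size gave 0.021. DESeq2 gave -0.032 for CXCL9 in the interaction. Leaving out 1 library or time, values that changed sign ran in SPX5551 against DMSO from -0.28 to 0.34 for CCL3, -0.14 to 0.45 for CCL4, -0.48 to 0.038 for CXCL9 and -0.58 to 0.065 for CXCL10. In the combination against ibrutinib they ran from -0.52 to 0.078 for CCL3, -0.34 to 0.48 for CCL3L3 and -0.64 to 0.064 for CXCL9. In the interaction the ranges were -0.62 to 0.028 for CCL3 and -0.41 to 0.33 for CXCL9, and between times -0.32 to 0.30 for CCL3L3 (12 h against 4 h) and -0.23 to 0.36 for CCL3 (12 h against 8 h).

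The combination against ibrutinib called 1 chemokine, CXCL10, with no filter, with the length and GC trend taken out and with only the 6 libraries compared, and 0 to 1 when 1 library or time was left out. At 12 h against 8 h the count was 0 with library size scaling and with DESeq2, 2 with no filter and in the absence of that pair of libraries (8 h ibrutinib, 12 h SPX5551), and 0 to 2 when 1 library or time was left out. Time by ibrutinib exposure called 2 with no filter. The fit with no filter treated the spread of each gene as known exactly, so nothing is read from its calls. With library size scaling, CCL3 at 12 h against 4 h had an adjusted p of 0.0604. By Spearman's in place of Pearson's correlation the same 5 genes were most like CCL3, while for CCL4 CD80 and DUSP2 took the place of PLK3 and NFKBIA, and for CXCL10 DDX55 stayed, joined by ZNF639, ODC1, SLC39A8 and DCTD. The cause of these changes was not tested. CCL3L3 rests on 2 to 4 counts in each library with ibrutinib, so depth limits its values there.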
